A study of Mus musculus with 24 samples.

Results

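The SoxB and SoxC genes are 8 of the mouse genes for SOX transcription factors, and they were followed through every peak list of a CUT&RUN study of the retina. They were taken by symbol from 21883 protein-coding genes on the main chromosomes: Sox1, Sox2 and Sox3 of group SoxB1, Sox14 and Sox21 of group SoxB2, and Sox4, Sox11 and Sox12 of group SoxC. Peaks were tied to a gene when they reached into it or into the 5 kb on either side, and a wider distance of 50 kb was used beside it. CUT&RUN cuts DNA around a chromatin protein with a nuclease that an antibody holds there, and the released fragments are sequenced. Retinas were from wild-type mice at postnatal day 2 (P2) or postnatal day 17 (P17), with no other treatment named, and the strain and sex are not given in the sources used here. Each age had 4 SOX8 libraries, made with 2 antibodies, and 2 libraries each for SOX9, for the promoter mark H3K4me3, for H3K27ac, a mark of active promoters and enhancers, and for nonspecific IgG.

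Proteins of the SOX family bind the minor groove of DNA through a domain called the HMG box and bend it. SoxB1 proteins keep neural progenitors from differentiating, and SOX2 is needed by retinal progenitors and is also made by mature Müller glia, the main glial cells of the retina. SoxB2 proteins act mostly as repressors at sites of the same kind. SoxC proteins are activators of young neurons, and Sox4 and Sox11 are needed for retinal ganglion cells to form. SOX8 and SOX9, the proteins whose binding the study mapped, belong to another group, SoxE.

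The values are the positions and widths of peaks in 8 lists, 1 for each target and age, which hold 349901 peaks. No list names a replicate or gives a height, so none of the values below has a replicate check and no test between ages was run. Depth is unknown. List sizes differed: 2653 and 2400 peaks for SOX8 at P2 and P17, 5476 and 2855 for SOX9, 9134 and 9629 for H3K4me3, and 287845 and 29909 for H3K27ac. The P2 H3K27ac list covered 525.4 Mb and the P17 list 173.4 Mb, so a gene can have a P2 H3K27ac peak and no P17 peak through list length alone. Retina is a mixture of cells, and fewer cells that carry a peak cannot be told apart from a weaker peak in each cell.

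Upstream sequence was found for 7 of the 8 genes in the RefSeq promoter table of GRCm38.p6. The 250 bases before the start site are shown for the 4 genes that had a SOX8 or SOX9 peak and for Sox1, which had none, because the peaks described below lie across or beside these bases. Capitals mark CG dinucleotides and, in Sox2, also the ACAAAG match named below. Each run reads 5′ to 3′ on the strand of the gene.

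Sox2: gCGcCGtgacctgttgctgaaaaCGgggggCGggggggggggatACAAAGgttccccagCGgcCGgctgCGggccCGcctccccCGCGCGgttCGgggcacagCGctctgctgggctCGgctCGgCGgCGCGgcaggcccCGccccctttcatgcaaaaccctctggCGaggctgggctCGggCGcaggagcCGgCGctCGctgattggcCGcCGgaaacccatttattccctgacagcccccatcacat
Sox1: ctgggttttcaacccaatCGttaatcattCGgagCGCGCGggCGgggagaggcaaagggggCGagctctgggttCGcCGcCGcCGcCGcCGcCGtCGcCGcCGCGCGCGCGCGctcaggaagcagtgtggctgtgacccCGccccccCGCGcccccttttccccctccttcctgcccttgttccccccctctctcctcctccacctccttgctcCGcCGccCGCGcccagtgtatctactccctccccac
Sox4: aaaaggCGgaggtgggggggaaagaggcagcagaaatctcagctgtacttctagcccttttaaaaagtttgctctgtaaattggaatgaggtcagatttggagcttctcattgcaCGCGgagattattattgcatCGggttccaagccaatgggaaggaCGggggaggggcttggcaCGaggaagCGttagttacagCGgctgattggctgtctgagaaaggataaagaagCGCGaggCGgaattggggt
Sox11: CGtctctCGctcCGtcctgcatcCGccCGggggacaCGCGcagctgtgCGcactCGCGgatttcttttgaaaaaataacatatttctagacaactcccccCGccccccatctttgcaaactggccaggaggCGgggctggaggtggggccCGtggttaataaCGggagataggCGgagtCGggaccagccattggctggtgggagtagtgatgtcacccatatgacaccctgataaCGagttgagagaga
Sox12: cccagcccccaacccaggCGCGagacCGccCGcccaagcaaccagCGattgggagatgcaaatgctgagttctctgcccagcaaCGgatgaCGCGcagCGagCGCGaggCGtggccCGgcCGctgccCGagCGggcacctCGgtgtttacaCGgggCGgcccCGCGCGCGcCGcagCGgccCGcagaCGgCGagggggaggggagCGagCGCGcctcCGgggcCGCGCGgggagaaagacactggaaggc

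The runs lie at chr3:34649745-34649994 on the plus strand for Sox2, chr8:12395269-12395518 on the plus strand for Sox1, chr13:28953700-28953949 on the minus strand for Sox4, chr12:27342719-27342968 on the minus strand for Sox11 and chr2:152398047-152398296 on the minus strand for Sox12. The number of CG dinucleotides was 35 in Sox12, 29 in Sox1, 27 in Sox2, 17 in Sox11 and 11 in Sox4, against a median of 10 over 21262 promoters of protein-coding genes. The share of G and C was 74.4% in Sox12, 72.0% in Sox2, 71.2% in Sox1, 58.0% in Sox11 and 50.8% in Sox4, with a median of 55.6% over the same promoters. Sox1, with no SOX or H3K4me3 peak, was thus richer in CG than 3 of the 4 genes that had them. Sox14 and Sox21, also without such peaks, had 23 and 17 CG dinucleotides.

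A search for the SOX-type motifs ACAAAG and ACAATG on both strands, where a stretch of 6 bases can match only 1 of them, found 1 match in these 7 upstream sequences. It was the ACAAAG on the gene strand of Sox2, which begins 206 bases before the start site. Of the 21262 promoters, 14.9% held ACAAAG, 9.35% ACAATG and 22.8% either in the same 250 bases. The 50 bases after the start site added no match in the 7 genes.

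At P2, SOX9 peaks lay at 4 of the 8 genes, Sox2, Sox4, Sox11 and Sox12, where 27.7% of all protein-coding genes had one. SOX8 peaks lay at 3 of them, Sox2, Sox11 and Sox12, against 15.1% of all genes. At P17 the SOX9 list had a peak at Sox12 alone, or 1 of 8 genes against 15.7%, and the SOX8 list had a peak at 0 of 8 against 13.0%. With 8 genes, both P17 counts are near these shares. No gene of the 8 had a SOX peak at P17 that it lacked at P2, where 4.94% of all genes did for SOX8 and 4.34% for SOX9. Shares this low leave little to expect among 8 genes. H3K4me3 peaks lay at Sox2, Sox3, Sox4, Sox11 and Sox12 at P2 (5 of 8, all genes 49.3%) and at Sox4, Sox11 and Sox12 at P17 (3 of 8, all genes 50.9%). Each of these counts is about 1 gene from the share over all genes. H3K27ac peaks lay at 6 of 8 genes at P2, near the background of 81.8%, and at Sox4 and Sox12 at P17 (2 of 8, all genes 57.0%).

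**Figure D1:**
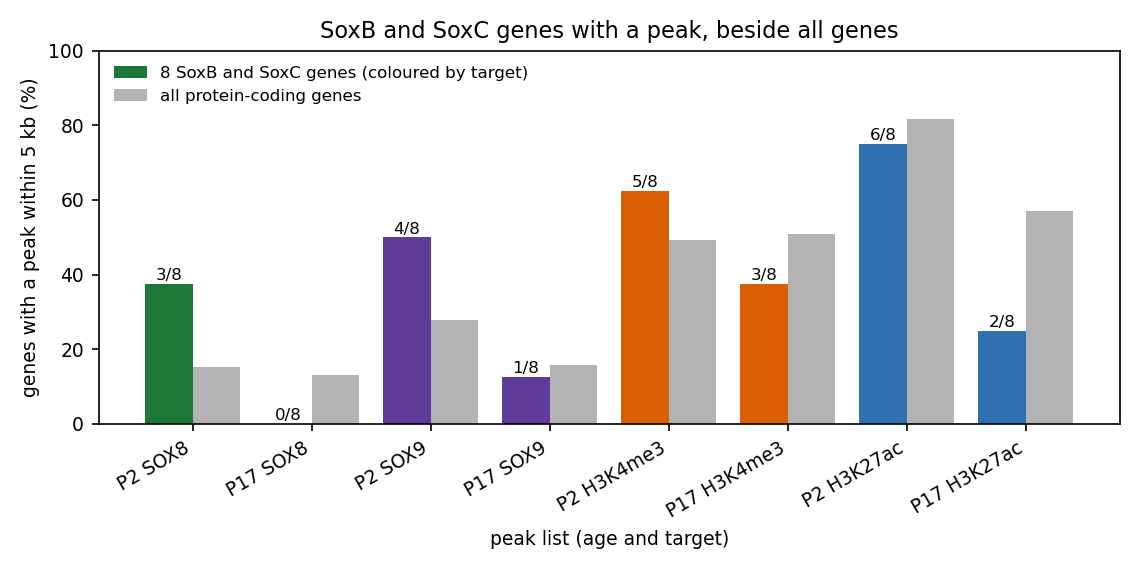
Bars give the percentage of genes with a peak within 5 kb (vertical axis) in each of the 8 peak lists, in colour for the SoxB and SoxC genes, with the number of genes above the bar, and in grey for all 21883 protein-coding genes. The coloured bars stand above the grey ones for P2 SOX8, P2 SOX9 and P2 H3K4me3, and below them in the 4 P17 lists and for P2 H3K27ac. The gaps of P2 H3K27ac, both H3K4me3 lists, P17 SOX8 and P17 SOX9 are about 1 gene of the 8 or less.

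The 8 genes are short, from 2065 to 8451 bp, and length changes the chance of a peak. Among the 4533 protein-coding genes in that range of length, 15.0% had a P2 SOX8 peak, 25.7% a P2 SOX9 peak, 15.5% a P17 SOX8 peak and 18.2% a P17 SOX9 peak. For the marks these shares were 44.1% and 44.5% for H3K4me3 and 75.9% and 49.6% for H3K27ac at P2 and P17. The largest gap to the share over all genes was that of P17 H3K27ac, 49.6% against 57.0%. With the distance of 50 kb the same 3 genes had a P2 SOX8 peak (all genes 28.8%), the same 4 a P2 SOX9 peak (46.1%), and Sox12 alone a P17 SOX9 peak (28.2%), and no gene had a P17 SOX8 peak (24.8%). H3K4me3 was at the same 5 genes at P2 (65.5%) and the same 3 at P17 (66.7%), and H3K27ac at 8 of 8 at P2 (91.1%) and at Sox2, Sox4 and Sox12 at P17 (72.0%).

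The median share of the 5 kb window inside peaks was 14.0% over the 8 genes for P2 SOX9, 50.6% for P2 H3K4me3 and 28.1% for P2 H3K27ac, where the medians over all genes were 0%, 0% and 20.9%. In the 4 P17 lists and for P2 SOX8 the median over the 8 genes was 0%, with medians over all genes of 0% for the SOX lists, 0.848% for P17 H3K4me3 and 4.85% for P17 H3K27ac.

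Change with age can be read per gene. SOX8 peaks were in the P2 list and not in the P17 list at 3 of 3 genes, where 46.4% of the 3301 genes with a P2 SOX8 peak lacked one at P17. For SOX9 this held for 3 of 4 genes, Sox2, Sox4 and Sox11, against 58.9% of 6070 genes. For H3K4me3 it held for Sox2 and Sox3, or 2 of 5 genes, against 6.91% of 10785 genes. For H3K27ac it held for Sox2, Sox3, Sox14 and Sox11, or 4 of 6 genes, against 30.7% of 17894 genes. With the widest peaks in equal number at both ages it held for 2 genes, Sox2 and Sox11, of 4 with a P2 peak. The share over all genes was not computed for that setting, and 30.7% belongs to the full lists. Neither mark had a P17 peak at a gene of the 8 that lacked it at P2, against 5.0% of all genes for H3K4me3 and 0.315% for H3K27ac. Among 8 genes such low shares leave little to expect.

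**Figure D2:**
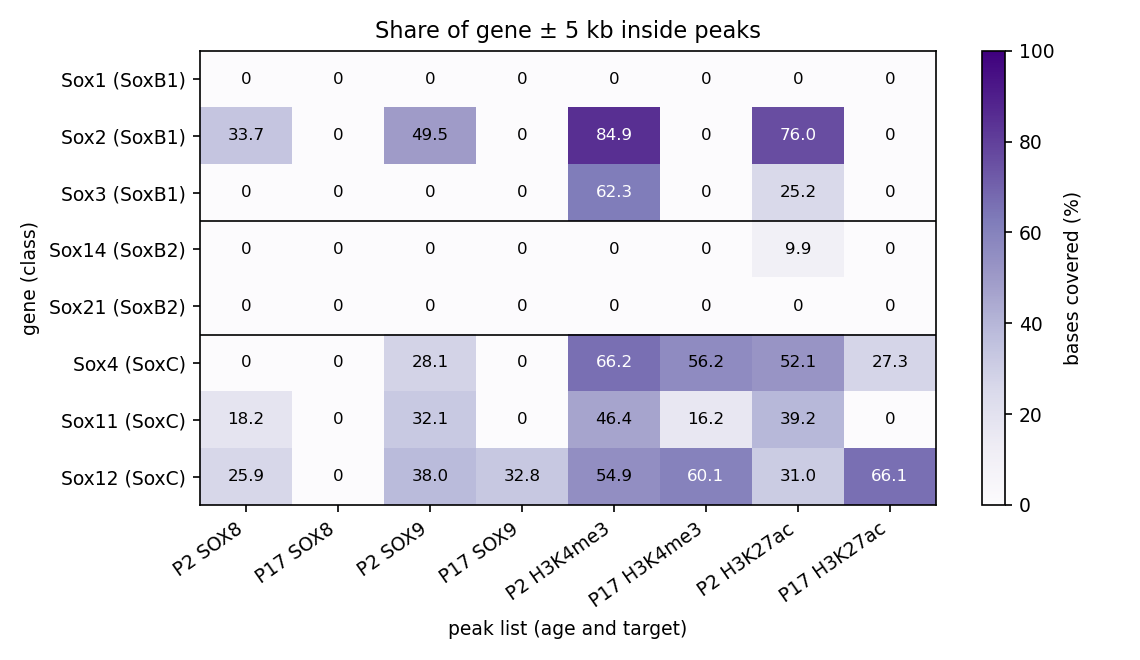
Each cell gives the percentage of the bases of a gene and its 5 kb flanks (rows, grouped as SoxB1, SoxB2 and SoxC) that lies inside peaks of a list (columns), with darker colour for a higher percentage. Sox2 has values above 30% in the 4 P2 lists and 0 in the 4 P17 lists, while Sox12 lacks a value only in P17 SOX8.

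Sox2, the SoxB1 gene best known in retinal progenitors, had the most peaks of the SoxB genes. The gene spans chr3:34649995-34652461 on the plus strand and lies inside the span of the long noncoding RNA gene Sox2ot. Sox2ot, at chr3:34560381-34677993, also spans the SOX8 and SOX9 peaks described below for Sox2, so these peaks cannot be given to Sox2 alone. The nearest protein-coding genes, Dnajc19 and Atp11b, are 568.6 and 1102 kb away. Its P2 SOX8 peak, chr3:34647580-34651779, was 4200 bp wide and reached from 2.42 kb before the start site to 1.78 kb after it. Its P2 SOX9 peak, chr3:34645951-34652126, was 6176 bp wide, began 4.04 kb before the start site and held the whole SOX8 peak. The P2 H3K4me3 peak held the whole SOX8 peak and 5246 of the 6176 bp of the SOX9 peak. It was 10646 bp wide, wider than or as wide as 99.3% of its list.

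Sites on either side of the gene added to this at P2. Downstream, a further site carried SOX8, SOX9, H3K4me3 and H3K27ac together. There the SOX8 peak of 4669 bp, chr3:34661088-34665756, lay inside a SOX9 peak of 8171 bp, chr3:34660542-34668712, from 10.5 to 18.7 kb after the start site. The H3K4me3 peak at that site measured 8970 bp and the H3K27ac peak 9829 bp. Upstream, a P2 SOX9 peak of 3568 bp, chr3:34637530-34641097, ended 8897 bp before the gene and had no SOX8 peak. An H3K4me3 peak of 6992 bp and H3K27ac overlapped it.

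At P17, SOX8, SOX9 and H3K4me3 had no peak within 50 kb of Sox2. The nearest P17 H3K4me3 peak was 566.6 kb away, the nearest SOX9 peak 849.1 kb and the nearest SOX8 peak 1941 kb. What the P17 lists held near Sox2 was a single H3K27ac peak of 5146 bp, chr3:34662464-34667609, from 12.5 to 17.6 kb after the start site. All 5146 bp lay inside the P2 H3K27ac peak of the downstream site. In the 50 kb window H3K27ac covered 46.7% of bases in 18 peaks at P2 and 5.02% in 1 peak at P17, where the medians over all genes were 21.0% and 6.41%.

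**Figure D3:**
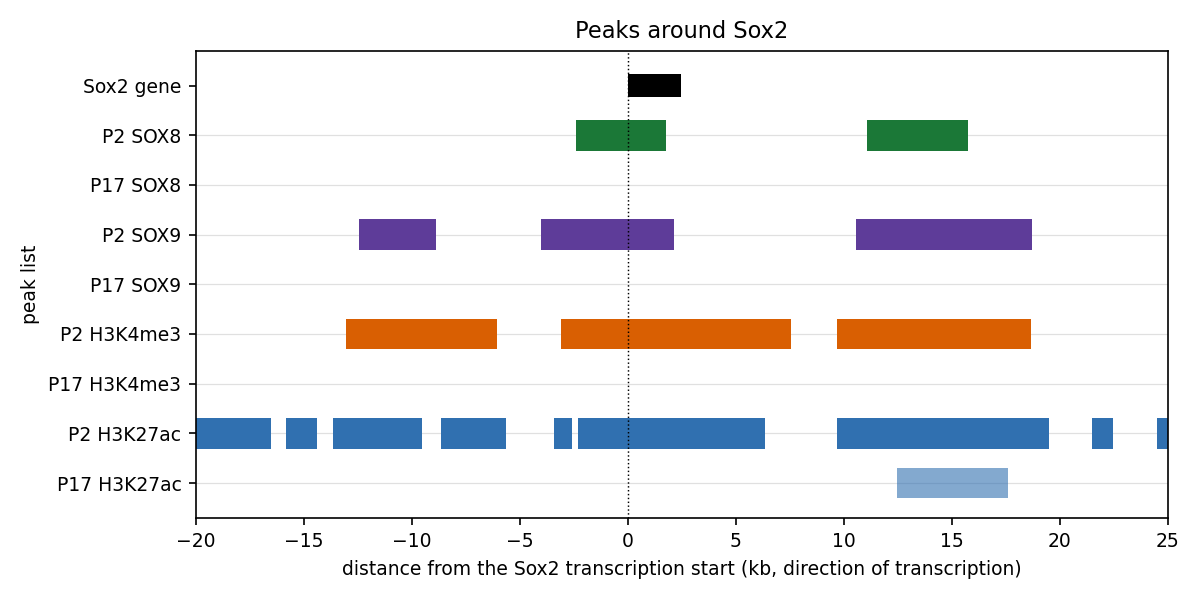
Bars are peaks of the 8 lists (rows, P17 in lighter shades) against the distance in kb from the Sox2 start site, with the gene as a black bar on top. The 4 P2 lists have a peak across the start site and another between 9.69 and 19.5 kb after it, and of the P17 lists only H3K27ac has a bar.

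Sox1 and Sox3, the other SoxB1 genes, had no SOX8 or SOX9 peak at either age within 50 kb. Sox1, at chr8:12395519-12399555 inside the span of the noncoding gene Sox1ot, had no peak of any list within 5 kb. Its nearest peak was P2 H3K27ac at 25.3 kb, and the nearest H3K4me3 peaks lay 270.8 kb away at P2 and 271.0 kb away at P17. Sox3, at chrX:60891366-60893430, differed from Sox1 in its marks. A P2 H3K4me3 peak of 7515 bp, chrX:60889565-60897079, covered the whole gene, with a P2 H3K27ac peak of 3046 bp inside it. Another gene, Gm38438, also lies within 5 kb of Sox3. Its overlap with the H3K4me3 peak was not recorded, so that peak may not belong to Sox3 alone. At P17 the nearest H3K4me3 peak to Sox3 was 486.1 kb away. The SOX lists held few X chromosome peaks at all, 14 of SOX8 and 48 of SOX9 at P2, and 6 and 13 at P17, and the nearest to Sox3 was 4159 kb from it.

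Sox14 and Sox21, the SoxB2 genes, had no SOX8, SOX9 or H3K4me3 peak within 50 kb at either age. Sox14, at chr9:99874106-99876170, had 1 P2 H3K27ac peak of 1197 bp that covered 9.92% of its 5 kb window and did not reach its start site. That coverage was low, since 32.4% of all genes had as little or less. Sox21, at chr14:118233233-118237030, had no peak in its 5 kb window in any list and 3 P2 H3K27ac peaks of 523 to 2215 bp within 50 kb, the nearest 16.0 kb away. The closest SOX peak to either gene was a P2 SOX9 peak 73.7 kb from Sox14.

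The SoxC genes Sox4, Sox11 and Sox12 all had a P2 SOX9 peak across the start site and H3K4me3 at both ages. They differed in SOX8 and in what was left at P17.

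Sox4, at chr13:28948919-28953699 on the minus strand, had P2 SOX9 peaks without SOX8. A SOX9 peak of 2850 bp, chr13:28951585-28954434, crossed the start site, and another of 1972 bp, chr13:28957402-28959373, lay 3702 bp upstream of the gene. The nearest P2 SOX8 peak was 530.3 kb away. Both SOX9 positions carried H3K4me3 and H3K27ac at P2, and both marks were still listed at both positions at P17, with H3K4me3 peaks of 7187 and 2420 bp against 8460 and 2943 bp at P2. The nearest P17 SOX9 peak was 1029 kb away. The noncoding gene Gm46405, at chr13:28945177-28960673, spans Sox4 and both SOX9 peaks, so these peaks cannot be given to Sox4 alone. Gm46406, also noncoding, lies within 5 kb and overlaps neither peak.

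Sox11, at chr12:27334268-27342718 on the minus strand, had both factors at P2. Its SOX8 peak, chr12:27340983-27344347, was 3365 bp wide, and its SOX9 peak, chr12:27338636-27344563, was 5928 bp wide and held the SOX8 peak. The H3K4me3 peak measured 8552 bp at P2 and 2997 bp at P17. Its coverage of the 5 kb window went from 46.35% to 16.2%, whereas Sox4 went from 66.2% to 56.2% and Sox12 from 54.9% to 60.1%. No P17 H3K27ac peak lay within 50 kb of Sox11, the nearest being 863.8 kb away. H3K4me3 without H3K27ac within 5 kb is uncommon at P17, found at 5.76% of the 11134 genes with H3K4me3.

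Sox12, at chr2:152393611-152398046 on the minus strand, kept a SOX9 peak at P17. The P2 SOX8 peak, chr2:152395718-152399456, measured 3739 bp, and the P2 SOX9 peak, chr2:152394500-152399987, measured 5488 bp. At P17 the SOX9 peak, chr2:152395111-152399840, measured 4730 bp and lay wholly inside the P2 peak, while the nearest P17 SOX8 peak was 287.6 kb away. Among genes with a P17 SOX9 peak, 59.1% also had a P17 SOX8 peak. At Sox12, H3K4me3 measured 7928 bp at P2 and 8673 bp at P17, and H3K27ac 4480 and 9540 bp. Against their own lists these peaks were no wider at P17: the H3K4me3 peak was at least as wide as 97.7% of peaks at P2 and 97.4% at P17, and the H3K27ac peak as 94.1% and 88.1%, with list medians for H3K27ac of 1166 and 3268 bp. Sox12 is also the member with the closest protein-coding neighbours, Zcchc3 at 13.9 kb and Nrsn2 at 16.98 kb. An H3K4me3 peak at Zcchc3, 12.2 kb from Sox12 at P2 and 12.1 kb at P17, had no SOX peak over it.

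**Figure D4:**
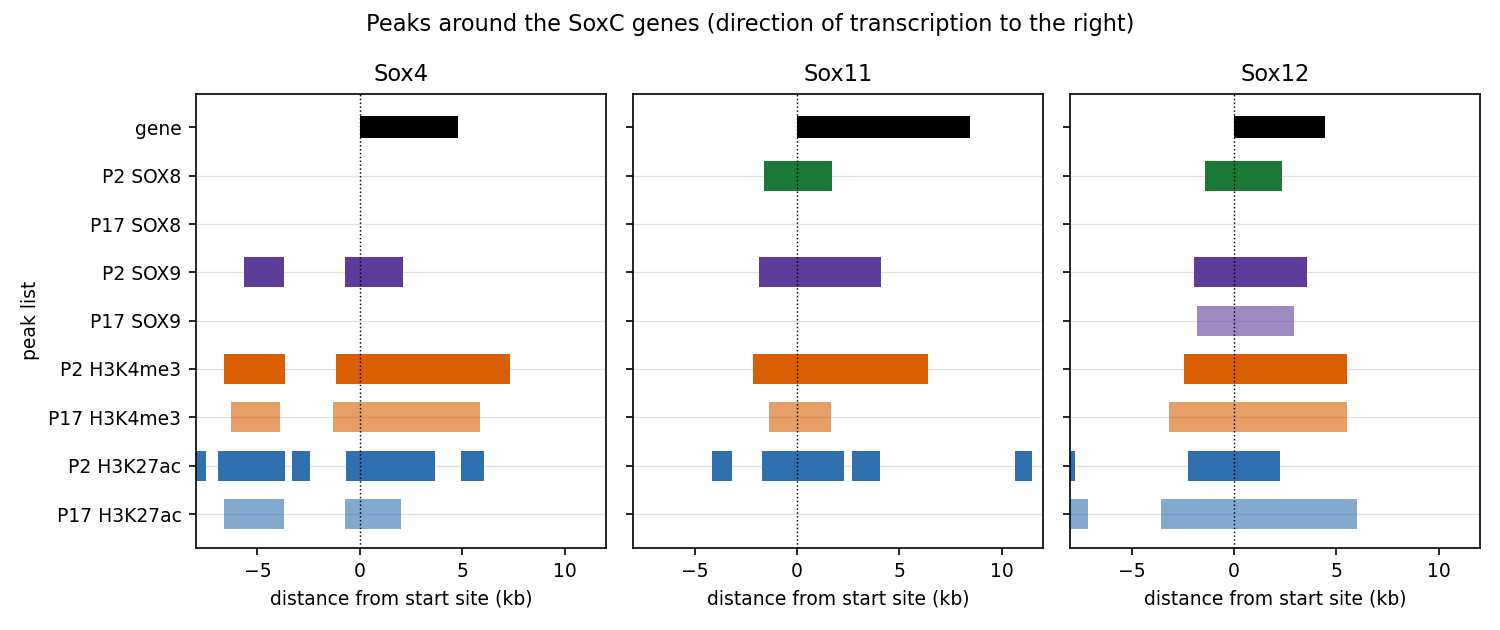
Bars are peaks of the 8 lists (rows, P17 in lighter shades) against distance in kb from the start sites of Sox4, Sox11 and Sox12, drawn so that transcription runs to the right, with the gene in black. SOX8 bars are missing at Sox4, the P17 H3K4me3 bar of Sox11 is 2997 bp long, and Sox12 has the only P17 SOX9 bar.

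At P2, the SOX8 peaks, the SOX9 peaks outside Sox4 and the H3K4me3 peaks over the genes were wide for their lists. The 3 SOX8 peaks within 5 kb, at Sox2, Sox12 and Sox11, were at least as wide as 97.4%, 95.2% and 91.1% of P2 SOX8 peaks, whose median was 2217 bp. P2 SOX9 peaks at Sox2, Sox11 and Sox12 were at least as wide as 97.8%, 97.4% and 96.6% of their list, but the 2 at Sox4 as wide as 58.3% and 16.5%. The P2 H3K4me3 peak over each of the 5 genes that had one was at least as wide as 97.0% to 99.3% of the list, whose median was 3542 bp. The H3K4me3 peak upstream of Sox4 was at least as wide as only 26.65% of its list at P2 and 10.2% at P17. P2 H3K27ac peaks within 5 kb were mixed, at least as wide as 22.3% to 98.3% of their list. At P17 the SOX9 peak of Sox12 was below the list median of 5336 bp, and the H3K4me3 peak of Sox11 was as wide as 26.5% of its list.

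**Figure D5:**
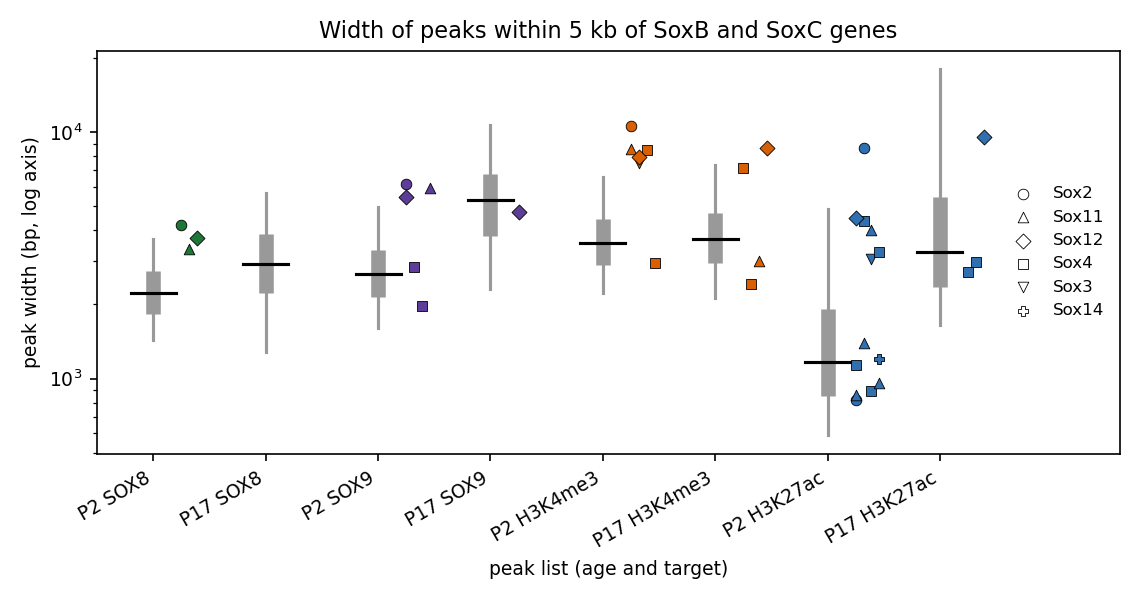
Coloured symbols give the width in bp (vertical log axis) of each peak within 5 kb of the genes in the key, for each peak list. Grey bars show the middle 50% of all peaks of the list, thin lines the range from the 5th to the 95th percentile, and black lines the median. The P2 SOX8 symbols lie above the grey bar, and the 5 highest P2 H3K4me3 symbols above the thin line.

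SOX8, SOX9 and H3K4me3 peaks lay together at Sox2, Sox11 and Sox12 at P2, and at none of the 8 genes at P17. Each of the 4 P2 SOX8 peaks within 50 kb overlapped a SOX9 peak, and each of these 4 and of the 7 P2 SOX9 peaks overlapped both H3K4me3 and H3K27ac. Over the whole lists, 94.5% of P2 SOX8 peaks overlapped SOX9, 90.1% overlapped H3K4me3, and 79.8% of P2 SOX9 peaks overlapped H3K4me3. H3K27ac was overlapped by 99.7% of all P2 SOX8 peaks and 99.4% of all P2 SOX9 peaks, so these overlaps are close to those of any peak of the lists. Of the 5 genes with P2 H3K4me3, 4 had SOX9 and 3 had SOX8, where 53.3% and 29.8% of all genes with P2 H3K4me3 did. Sox3 was the gene with H3K4me3 and no SOX peak. Of the 4 genes with P2 SOX9, 3 had SOX8, against 52.1% of all genes with P2 SOX9. At P17, 1 of the 3 genes with H3K4me3 had SOX9 and 0 had SOX8, against 27.4% and 23.1%. None of the 3 genes without P2 H3K4me3 (Sox1, Sox14 and Sox21) had a SOX peak, where 2.91% of all such genes had SOX9 and 0.748% SOX8. With 3 genes, shares this low leave little to expect. At the upstream sequences themselves, peaks of P2 SOX8, SOX9 and H3K4me3 lay at 3, 4 and 4 of 7 genes, against 12.2%, 22.9% and 44.8% of 17491 genes with a promoter entry. The shares over the 17491 genes used a window of 300 bases, 50 of them after the start site, at any promoter of a gene.

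The other 12 Sox genes give a comparison inside the family. P2 SOX9 peaks lay at Sox6, Sox8 and Sox9, and a P2 SOX8 peak at Sox8, so 3 of 12 and 1 of 12 genes, against 4 of 8 and 3 of 8 SoxB and SoxC genes. Over all genes the shares were 27.7% and 15.1%, so the counts of the 12 are near them. At P17, Sox10 had a SOX9 peak and Sox13 a SOX8 peak (all genes 15.7% and 13.0%). H3K4me3 lay at 6 of these 12 genes at P2 and at 2 at P17 (all genes 49.3% and 50.9%). With so few genes these counts are descriptions.

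Genes of the cells in which SoxB and SoxC factors act were counted beside them. Of 12 retinal progenitor factors, such as Pax6 and Hes1, 11 had P2 SOX9 peaks and 9 P2 SOX8 peaks, and 5 and 3 had them at P17. Over all genes the shares were 27.7% for SOX9 and 15.1% for SOX8 at P2, and 15.7% and 13.0% at P17. H3K4me3 lay at 12 of 12 at P2 and at 8 at P17 (all genes 49.3% and 50.9%). Notch1 and Nes, like Sox2, had H3K4me3 and SOX9 peaks at P2 and neither at P17. Of 10 genes of ganglion cells and young neurons, cells that SoxC factors help to form, 2 had a P2 SOX9 peak, Tubb3 and Elavl3, and 0 had a P2 SOX8 peak. The SOX9 count is near the share over all genes of 27.7%, and for SOX8 that share was 15.1%. H3K4me3 lay at 4 of these 10 genes at each age, near the 49.3% and 50.9% of all genes, but not at the same 4. Atoh7 had it at P2 only, and Isl1 had it at P17 only, together with H3K27ac. At P17, Tubb3 had a SOX8 peak and 0 of the 10 had a SOX9 peak (all genes 13.0% and 15.7%). The ganglion cell regulators Pou4f1 and Pou4f2, and also Dcx, had no peak in any list.

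Rod photoreceptor markers, genes that turn on as rods mature, had H3K4me3 at 4 of 6 genes at P2 and 6 of 6 at P17. They had SOX9 at 1 and 6 (all genes 27.7% and 15.7%). Markers of pigment epithelium and lens, cells that dissection could add, and of microglia and endothelium were mostly without H3K4me3. It lay at 1 of 4 for the pigment epithelium (Best1), 1 of 4 for microglia and endothelium (Aif1) and 1 of 3 for lens (Bfsp1). These were the same at both ages, where 49.3% and 50.9% of all genes had H3K4me3. Rpe65 had no peak in any list. H3K27ac was not rare at these markers. In the same order it lay at 3 of 4, 4 of 4 and 3 of 3 at P2 (all genes 81.8%). At P17 it lay at 1, 2 and 3 of them (all genes 57.0%). The pigment epithelium list had P2 SOX9 at 1 gene and no other SOX peak, the microglia and endothelium list had each SOX list at 1 gene, and the lens list had P2 SOX8 and SOX9 at 1 gene. For SOX8 the share over all genes was 15.1% at P2 and 13.0% at P17. Lists this short cannot be told from such shares. The part of changing cell types in the loss of peaks at Sox2, Sox3, Sox14, Sox4, Sox11 and Sox12 was not tested.

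Genes with the most similar pattern were found from the 8 percentages of covered bases, as the smallest Euclidean distance in percentage points. Id2, an inhibitor of basic helix-loop-helix factors, was by far the nearest to Sox2, at 8.93 points, before Zic2 at 33.6 and Id1 at 41.1. In Id2, P2 SOX8 covered 35.85% of the window, P2 SOX9 54.65%, H3K4me3 77.9% and H3K27ac 75.6%, and all 4 P17 lists were at 0, against 33.7%, 49.5%, 84.9% and 76.0% in Sox2. Nearest to Sox11 were Adamts1 at 17.7 points, the neuronal regulator Neurog2 at 20.1 and the eye patterning gene Vax1 at 24.4. Sox4 was nearest to Tlcd1 at 19.9 and to the histone genes H2ac13 and H2bc13 at 22.4 and 23.2. Sox12 was nearest to Ctdnep1, Tmem102 and Hnrnpu, at 24.1, 24.3 and 24.6 points, and each of these had P17 SOX9 coverage as Sox12 did. Ctdnep1 and Hnrnpu also had P17 SOX8 coverage, of 14.7% and 12.5%, which Sox12 lacked. The distance rests on 8 lists whose sizes differ widely.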

How the data were processed

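CUT&RUN libraries (24 in all, from 600000 nuclei each per the labels) stand behind 8 deposited peak lists, 1 for each target and age. A list was read as that of the age and target in its name. The 4 IgG libraries were not analysed here. Bowtie2, SEACR and the build GRCm38 are named in the submitters' processing notes, with no role or version. The threshold, the use of IgG and the way libraries were combined are not given in the sources used here. The deposited files hold the start and end of each peak, and the deposited score is 0 in every peak, so no height, fold or p-value was used. Genes and upstream sequences came from RefSeq tables of GRCm38.p6.

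A peak belonged to a gene when at least 1 bp overlapped the gene with 5 kb on either side. The percentage of that window inside peaks was computed with python 3.11.15, pandas 2.3.3 and numpy 2.4.6, and the overlap code was checked on simulated peaks. No test was run, since each group has 1 list. Every member was named with its peaks, with the 3 most similar genes of each member that had a SOX peak. Alternatives were 50 kb, the gene body, peak centres, the wider 50% of each list, and the widest peaks in equal number at both ages. The genes, gene lists and distances were chosen with earlier results of these data known. A planned comparison of the proteins was not run, as protein sequences were not used here. Some genes of the lists are not reported here by name.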

Additional observations from a re-analysis of the deposited data

How the results depend on the processing

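Of 64 recomputed counts over 16 results, 61 stayed within 1.5 times the reported one. With only 8 genes this is a loose measure. Counts of 0 against 0 pass it, as did 6 to 8 and 6 to 4 for P2 H3K27ac and 3 to 2 for P17 H3K4me3. With the wider 50% of each list, the number of genes with a P17 SOX9 peak went from 1 to 0, since the Sox12 peak is narrower than the list median, and the number with a P17 H3K27ac peak from 2 to 1. With the widest peaks in equal number at both ages, 2 genes (Sox2 and Sox11) in place of 4 had an H3K27ac peak at P2 and none at P17, because Sox3 and Sox14 had no peak in the shortened P2 list. No share over all genes was computed for the lists shortened by width. The genes with SOX8 and SOX9 peaks at P2 were the same under each of the 5 alternatives. Width need not rank peaks as a caller would, and no IgG list or replicate gives an error for any count. No paired analysis was possible because the lists carry no replicates. The depth of the libraries is unknown, so a missing peak says only that the list has none there.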

Other observations

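The pattern of Sox2 was looked for in other genes after its values had been seen. Of 3093 protein-coding genes with P2 peaks of SOX8, SOX9 and H3K4me3 within 5 kb, 25 (0.808%), Sox2 among them, had no P17 peak of any of the 4 targets. Id2 and Id1, which are among the 3 genes nearest to Sox2 in coverage, and Neurog2 are also among the 25. Their coverage values already meet the rule for the 25, so this is not a separate result. Over all protein-coding genes, 39.0% had no P17 peak of any target within 5 kb.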
